A study of Mus musculus with 12 samples.

Results

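The growing oocytes compared here came from mouse ovaries at postnatal day 7 (P7) and carried either the label PRC1 control or the label PRC1 cKO (conditional knockout), with 2 RNA-seq libraries of each. These are 4 of the 12 libraries of the series, and they were chosen by their labels alone. The controls are labelled Ring1-/-; Rnf2F/+; Ddx4-Cre and the cKO libraries Ring1-/-; Ring1F/-; Ddx4-Cre. The cKO label repeats Ring1 and names no Rnf2 allele, so the second gene deleted there is taken from the name PRC1 cKO and not from the alleles. Both groups lack Ring1, so the comparison holds no information on the loss of Ring1 itself. Both also carry Ddx4-Cre, a recombinase expressed from the promoter of the germ cell gene Ddx4. The labels call the cells primary and do not say how the oocytes were isolated, how many animals were pooled or whether a group's 2 libraries represent different animals. The other 8 libraries hold Eed deletion (EedF/-; Ddx4-Cre) and its control (EedF/+; Ddx4-Cre), in P6 non-growing and P7 growing oocytes, and serve below only to set values side by side.

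Polycomb repressive complex 1 (PRC1) attaches a single ubiquitin to histone H2A through the ligases RING1 and RNF2 (RING1B), each paired with a PCGF protein. Its CBX subunits bind the methyl mark that Polycomb repressive complex 2 (PRC2) places on histone H3, and together the complexes hold developmental genes silent in many cell types. In the mouse germ line, PRC1 is known for restraining meiotic genes in early germ cells and for the developmental competence of the oocyte. An oocyte that leaves the resting pool and grows has already passed the chromosome pairing of meiotic prophase, and it then accumulates zona pellucida proteins, secreted growth factors and mRNA stores for the embryo.

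The 4 libraries were compared as TPM, a length-corrected share of each library's transcripts that has the same total in every library and keeps no sequencing depth. Of 55401 gene models, 14941 reached 1 TPM or more in at least 2 of the 4 libraries and were tested with limma. Of these, 2194 passed that filter only through the cKO libraries and 116 only through the controls. The control libraries held 12313 and 12592 models at 1 TPM or more, and the cKO libraries 15582 and 14940. On the deposited scale, log2(TPM + 1), 7140 genes (47.8%) passed at an adjusted p of 0.05, of which 6176 (41.3%) were higher in the cKO and 964 (6.45%) lower. After each library was scaled by a trimmed mean of its ratios to the average library, 6411 (42.9%) passed, with 3385 (22.7%) higher and 3026 (20.3%) lower. The scaling moved the median log2 fold change of all tested genes from 0.55 to -0.01, a shift of 0.56. A gene is written below as having risen or fallen only where it passed on both scales in the same direction, which 4349 genes did (29.1% of those tested), 3385 upward (22.7%) and 964 downward (6.45%). Of 12443 tested protein-coding genes 2842 rose (22.8%) and 703 fell (5.65%). The shares of all tested genes, 22.7% upward and 6.45% downward, are the background for each count of list members below. No gene passed in opposite directions on the 2 scales. In these bulk samples, fewer cells of a type and less RNA per cell cannot be told apart. Log2 fold changes are given on the deposited scale first and on the trimmed-mean scale second, each with its standard error (SE), and both understate the change of genes with low TPM.

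**Figure D1:**
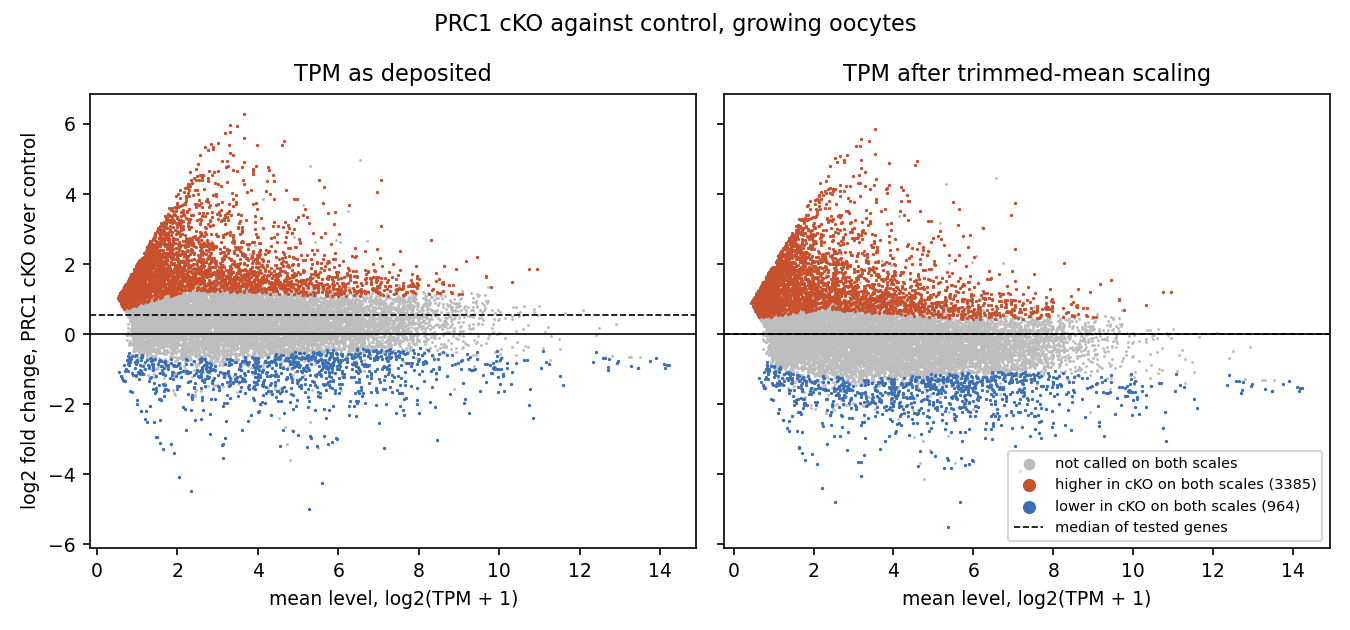
Log2 fold change of each of the 14941 tested genes (cKO over control) against its mean level, on the deposited scale (left) and after trimmed-mean scaling (right). Red points are the 3385 genes higher and blue points the 964 genes lower on both scales, and the dashed line, the median of all tested genes, moves from 0.55 to -0.01.

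Calls by 2-fold or more numbered 2161 higher and 1609 lower on the trimmed-mean scale alone, and 4098 higher and 485 lower on the deposited scale alone. Among the genes that rose on both scales, 2161 were higher by 2-fold or more on the trimmed-mean scale, 594 by 4-fold, 169 by 8-fold and 52 by 16-fold. Among those that fell on both, 953 were lower by 2-fold or more, 485 of them on the deposited scale too (3.25% of tested genes), 233 by 4-fold, 36 by 8-fold and 5 by 16-fold. With 1 library left out at a time, the genes called on both scales numbered 2408 without control 1, 2849 without control 2, 2751 without cKO 1 and 3271 without cKO 2.

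The genes named in the genotypes came first, as a check of the labels. Ring1, the ligase gene deleted in both groups, was listed at 0 in both controls and at 0.01 and 0.02 TPM in the cKO libraries. In the Eed libraries, whose labels name no Ring1 deletion, it lay between 0.10 and 0.92 TPM. The growing oocytes among these held 0.35 and 0.32 TPM in the controls and 0.33 and 0.10 TPM in the Eed cKO. Ring1 was thus near the floor there too, and its level is a weak check of the labels. Rnf2, which encodes the partner ligase, was at 59.2 and 53.8 TPM in the controls and at 87.8 and 61.4 TPM in the cKO libraries. Its log2 fold change was 0.37 (SE 0.21, limma adjusted p = 0.197) on the deposited scale and -0.27 (SE 0.18, adjusted p = 0.268) after scaling, so it passed on neither. One value per gene model does not show whether part of a gene is missing, and the Rnf2 level therefore neither checks nor contradicts the cKO label.

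The 4 genes listed as marks of this comparison split into a pair that rose and a pair that fell. Sycp1 encodes the transverse filament of the synaptonemal complex, the scaffold that joins paired chromosomes. It was at 41.3 and 48.0 TPM in the controls and at 450.0 and 333 TPM in the cKO libraries, a log2 fold change of 3.09 (SE 0.19) and 2.44 (SE 0.14), with limma adjusted p = 0.0021 and 0.0015. Lmx1a, a LIM homeodomain regulator of the developing nervous system, was at 0.12 and 0.17 TPM in the controls and at 19.9 and 20.9 TPM in the cKO libraries (4.22, SE 0.21, and 3.87, SE 0.22). Bmp15 and Gdf9 encode the paired growth factors that the oocyte sends to its granulosa cells. Bmp15 was at 448 and 354 TPM in the controls against 22.1 and 74.2 TPM in the cKO libraries (-3.26, SE 0.56, and -3.90, SE 0.62, adjusted p = 0.009 and 0.007). Gdf9 was at 4864 and 5225 TPM against 1572 and 2205 TPM (-1.44, SE 0.20, and -2.09, SE 0.29). The groups overlapped for none of these genes. That sets them little apart, since the groups did not overlap on both scales for 9013 of 14941 tested genes (60.3%).

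The promoters of 3 of these genes, from RefSeq on build GRCm38.p6, are shown to set the CG content of a meiotic, a developmental and an oocyte-secreted factor gene side by side. Each window runs from 250 bases before to 50 bases after the annotated start on the gene's strand, 5′ to 3′, with CG dinucleotides in capitals. The positions are chr3:102936051-102936350 (minus strand) for Sycp1, chr1:167689308-167689607 (plus strand) for Lmx1a and chrX:6320675-6320974 (minus strand) for Bmp15.
Sycp1: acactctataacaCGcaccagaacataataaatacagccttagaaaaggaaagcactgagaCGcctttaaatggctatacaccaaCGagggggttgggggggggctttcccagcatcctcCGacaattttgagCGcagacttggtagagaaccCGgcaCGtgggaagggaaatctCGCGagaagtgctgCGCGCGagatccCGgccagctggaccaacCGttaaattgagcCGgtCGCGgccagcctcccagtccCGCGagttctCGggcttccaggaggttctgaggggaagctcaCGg
Lmx1a: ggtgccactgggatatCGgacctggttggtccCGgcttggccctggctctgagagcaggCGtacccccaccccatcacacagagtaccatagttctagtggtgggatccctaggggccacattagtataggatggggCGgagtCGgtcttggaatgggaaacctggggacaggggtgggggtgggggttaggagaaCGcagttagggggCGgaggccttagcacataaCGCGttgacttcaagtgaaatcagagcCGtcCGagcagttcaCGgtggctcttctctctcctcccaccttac
Bmp15: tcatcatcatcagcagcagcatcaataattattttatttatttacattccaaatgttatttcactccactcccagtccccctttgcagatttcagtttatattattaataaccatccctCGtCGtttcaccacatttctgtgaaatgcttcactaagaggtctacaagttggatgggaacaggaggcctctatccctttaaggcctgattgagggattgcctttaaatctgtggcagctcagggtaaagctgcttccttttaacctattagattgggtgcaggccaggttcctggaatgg
The Sycp1 window held 21 CG, the Lmx1a window 12 and the Bmp15 window 2. Of the 12443 tested protein-coding genes, 10014 (80.5%) matched a RefSeq window, with a median of 20 CG. The median was 16 CG over the 2221 matched genes that rose, 17.6 over the 565 that fell and 21 over those not called. It was 10 over the 106 matched genes higher by 8-fold or more and 2 over the 13 lower by 8-fold or more. The E-box CACGTG, read on both strands at once because it is its own reverse complement, occurred once in the Sycp1 window and in neither of the others, and 11.8% of all matched windows held it. It was held by 50% of the 12 synaptonemal complex genes with a window, by 14.3% of the 21 recombination genes with one and by 12.5% of all matched genes that rose. The sequence TCCCGC, searched on both strands, occurred once in the Sycp1 window and in 38.8% of all matched windows.

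**Figure D2:**
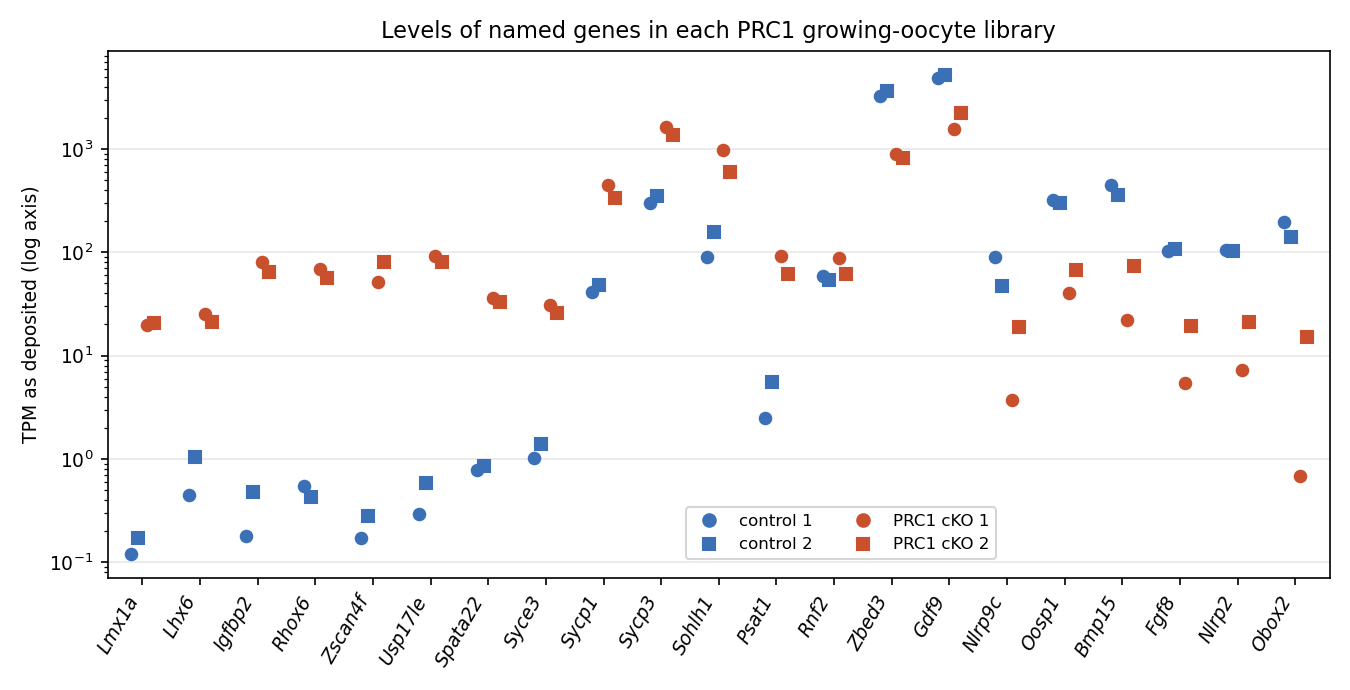
TPM as deposited, on a log axis, of named genes in each of the 4 libraries (blue for control, red for PRC1 cKO, circles for library 1 and squares for library 2). From Lmx1a to Psat1 both red points lie above both blue points. Rnf2 changes little, and from Zbed3 to Obox2 both red points lie below.

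Among the genes through which a growing oocyte equips its follicle and its embryo, falls outnumbered rises. Of 13 oocyte-secreted factor genes, all tested, 8 fell and 1 rose, with a median log2 fold change of -1.44 and -2.09. The falls were Gdf9, Bmp15, Fgf8, Tgfb2, Omt2a, Omt2b, Oosp1 and Oosp3. Fgf8, a fibroblast growth factor that cooperates with BMP15 on cumulus cells, was at 103 and 107 TPM in the controls and at 5.42 and 19.2 TPM in the cKO libraries (-3.22, SE 0.54, and -3.83, SE 0.57). Oosp1, an oocyte-secreted protein gene, was at 318 and 297 TPM against 40.7 and 66.6 TPM (-2.54, SE 0.25, and -3.19, SE 0.32). The one rise was Kitl, the ligand of the KIT receptor and a granulosa cell product, at 1.22 and 0.86 TPM against 7.78 and 4.95 TPM, and its call was lost without cKO 1. The call of Tgfb2 was lost without control 1.

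The egg coat genes moved less. They were listed with egg surface genes and with the oocyte-to-embryo factors Zar1 and Zar1l. Of the 8 genes in this list 3 fell (Zp3, Zar1 and Zar1l) and none rose on both scales (median -0.42 and -1.07). Zp3, which encodes a zona pellucida glycoprotein, was at 6385 and 6487 TPM in the controls and at 4458 and 4595 TPM in the cKO libraries (-0.51 and -1.17), and this call was lost without control 1, control 2 or cKO 1. Zar1l, a relative of the oocyte-to-embryo factor Zar1, was at 115 and 105 TPM against 15.8 and 35.3 TPM (-2.16 and -2.80). Zp1 was at 1659 and 1911 TPM against 1435 and 1407 TPM and passed on the trimmed-mean scale only. The falls numbered 1, 2, 1 and 3 without control 1, control 2, cKO 1 and cKO 2. Zar1 itself was at 584 and 352 TPM against 87.7 and 172 TPM, with a call lost without control 1 or cKO 1.

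Maternal-effect genes, whose products are loaded into the egg for the embryo, gave 18 falls and no rise on both scales among 33 tested (median -0.69 and -1.31). Zbed3, a subcortical maternal complex component, was at 3258 and 3627 TPM in the controls and at 888 and 812 TPM in the cKO libraries (-2.02, SE 0.14, and -2.67, SE 0.17). Nlrp2, of the oocyte NLRP family, was at 104 and 103 TPM against 7.18 and 21.1 TPM (-2.96 and -3.58). Dnmt1, the maintenance DNA methyltransferase, was at 257 and 355 TPM against 124 and 78.8 TPM (-1.60 and -2.26). The 18 falls became 10 without control 1, 11 without control 2, 12 without cKO 1 and 17 without cKO 2. Nlrp5 (Mater) was among those that lost their call in every one of these fits, at 2419.6 and 2669 TPM against 1969 and 1698 TPM.

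Stored mRNA is kept and later cleared by a further set of factors. The list for them, which also holds Mos and Bpgm, genes of other function, gave 11 falls and no rise among 25 (median -0.63 and -1.28). Mos and Bpgm were among the falls. Btg4, an adaptor for the removal of poly(A) tails during maturation, was at 647 and 576 TPM in the controls and at 150.5 and 165 TPM in the cKO libraries (-1.95, SE 0.13, and -2.60, SE 0.20). Eif4e1b, an oocyte cap-binding protein, was at 251 and 274 TPM against 82.9 and 101 TPM (-1.51 and -2.16). Mos, the kinase that holds the egg in metaphase of the second meiotic division, was at 219.6 and 259.5 TPM against 87.3 and 127 TPM (-1.17 and -1.82). The falls numbered 8 without control 1, 9 without control 2 or cKO 1 and 11 without cKO 2, and 1 gene of the list was called higher without control 2.

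The steepest falls were in the list of Obox oocyte homeobox genes, 4 of whose 5 tested members fell (Obox1, Obox2, Obox5 and Obox7). The remaining tested member of the list passed as higher on the deposited scale only. Over all 10 listed, both cKO libraries lay below both controls in 4 and above in 2. Obox2 was at 197 and 139.6 TPM in the controls and at 0.68 and 15.2 TPM in the cKO libraries (-5.0, SE 1.05, and -5.51, SE 1.02, adjusted p = 0.016 and 0.011). The 2 cKO libraries differed widely from each other here, though both lay below both controls. Obox5 was at 158 and 123 TPM against 7.09 and 30.9 TPM and lost its call without control 1, and Obox1, at 176 and 126 TPM against 1.15 and 27.4 TPM, lost it without either control. Near-identical copies make the split of reads among Obox genes uncertain. In the oocyte Fbxw cluster of F-box genes, 13 of 15 tested members fell, and the cluster summed to 7392 and 5804 TPM in the controls and to 1698 and 3189 TPM in the cKO libraries. Other falls of the 12 largest were Cyp2c29, Nlrp9c, Zfp109 and Grm2, the last at 22.2 and 37.9 TPM against 2.45 and 7.37 TPM. Grm2 lost its call without cKO 1, and Nlrp9c lost it without control 1 or cKO 1.

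Genes of meiotic prophase moved the other way. Of 12 synaptonemal complex and axis genes, all tested, 7 rose and none fell (Sycp1, Sycp3, Syce1, Syce3, Tex12, Hormad1 and 4930447C04Rik), with a median log2 fold change of 1.90 and 1.25, and 7 were called with each library left out. Sycp3, an axis protein, was at 297 and 350.2 TPM in the controls and at 1630.2 and 1368 TPM in the cKO libraries (2.21, SE 0.16, and 1.55, SE 0.15). Syce3, a central element protein, was at 1.02 and 1.4 TPM against 30.6 and 25.6 TPM (3.72, SE 0.23, and 3.22, SE 0.20). Both cKO libraries lay above both controls in 9 of the 12 genes (75%), beside 36.8% of all protein-coding models. That background is not like for like, since all 12 genes were tested. Of the 21897 protein-coding models 12443 were tested, and 4797 lay under 0.1 TPM in all 4 libraries. Among all tested genes, the groups did not overlap, in one direction or the other, for 60.3%.

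Of 28 recombination genes, all tested, 12 rose and none fell (median 1.05 and 0.52). The filter was passed only through the cKO libraries by 6 of the 28, which fixes part of that count. Spata22, which works with MEIOB on single-stranded DNA at break sites, was at 0.78 and 0.86 TPM in the controls and at 35.7 and 33.1 TPM in the cKO libraries (4.28, SE 0.21, and 3.81, SE 0.20). Dmc1, the meiotic strand-exchange recombinase, was at 0.21 and 0.51 TPM against 6.63 and 5.71 TPM (2.40 and 2.04). Tex11, an X-linked crossover factor, was at 10.3 and 13.0 TPM against 91.1 and 73.8 TPM (2.72 and 2.09). Spo11, which makes the breaks that start recombination, was at 0.10 and 0.33 TPM against 4.18 and 3.31 TPM (1.97 and 1.66). The 12 rises became 7 without control 1 and 8 without each of the other libraries. Of the 5 tested genes of meiotic entry and meiotic cohesin, Smc1b alone rose, from 85.1 and 90.7 TPM to 257 and 239 TPM, and it lost its call without control 2.

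Rhox genes, X-linked homeobox genes of the reproductive tract, showed the highest list median, 4.39 and 4.01 over 13 tested of 17 listed, with 12 rises and no fall. Rhox6 was at 0.55 and 0.43 TPM in the controls and at 68.7 and 56.6 TPM in the cKO libraries (5.41, SE 0.22, and 4.97, SE 0.20). Its relative Rhox2a was at 9.38 and 12.2 TPM against 213 and 212 TPM (4.19 and 3.56). Of these 13, 6 passed the filter only through the cKO libraries, so the filter fixes part of their count and median. Over all 17 listed, both cKO libraries lay above both controls in 12 (70.6%), beside 36.8% of all protein-coding models. Of those models 12443 of 21897 were tested, a smaller share than of the list, so the background is not like for like. Over all models of the family, pseudogenes and predicted copies included, 33 of 34 tested rose, and the family summed to 95.7 and 127 TPM against 1299 and 1122 TPM. Xlr genes, a second X-linked germline family, gave 7 rises among 9 tested (median 1.89 and 1.24), and Xlr3c was at 16.5 and 12.2 TPM against 110.5 and 114 TPM. Both families hold near-identical copies, so the values of single members are uncertain. Xlr rises numbered 7, 5, 5 and 4 without control 1, control 2, cKO 1 and cKO 2.

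Genes known for brief activity in the cleavage-stage mouse embryo were mostly too low in the controls to pass the filter there. Over all 19 listed, both cKO libraries lay above both controls in 15 (78.9%), beside 36.8% of all protein-coding models. Of the 11 tested, 9 passed only through the cKO libraries, which fixes much of their count of 9 rises and 1 fall. Zscan4f, of a family of zinc finger genes switched on around the activation of the embryonic genome, was at 0.17 and 0.28 TPM in the controls and at 51.6 and 80.8 TPM in the cKO libraries (5.74, SE 0.29, and 5.36, SE 0.33). Usp17le, a ubiquitin peptidase gene, was at 0.29 and 0.59 TPM against 92.8 and 81.2 TPM (5.94, SE 0.22, and 5.51, SE 0.21), the largest rise under the naming rule. Duxf3, the mouse Dux gene that activates this set, was at 0.05 and 0.19 TPM against 15.0 and 6.52 TPM (3.30 and 2.97). Tcstv1 went the other way, at 43.2 and 36.8 TPM against 9.17 and 19.7 TPM, and lost its call without either control. Copies within the Zscan4 and Usp17l families are near-identical, so the split of reads among them is uncertain. Summed over models, Zscan4 genes were at 1.59 and 1.88 TPM against 147 and 218 TPM and Usp17l genes at 0.80 and 1.13 TPM against 146 and 123 TPM.

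Most classical Polycomb targets stayed near or below the limit of the filter. Of 39 Hox genes, the regulators of the body axis, 9 were tested, 8 of them only through the cKO libraries, and 8 rose. The filter therefore fixes much of that count. Over all 39 Hox genes, tested or not, both cKO libraries lay above both controls on both scales in 22 (56.4%) and below in 1, 16 lay under 0.1 TPM in all 4 libraries, and the highest cKO value was 11.4 TPM. Both cKO libraries were above in 36.8% of all protein-coding models. Hoxb13 was at 0.03 and 0.04 TPM in the controls and at 5.54 and 2.30 TPM in the cKO libraries (2.17 and 1.90).

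Of 95 other homeobox and Pax regulators, 31 were tested, 16 only through the cKO libraries, and 15 rose while 5 fell. Much of this count of rises is again fixed by the filter. Lhx6, a regulator of interneuron development, was at 0.45 and 1.05 TPM in the controls and at 25.4 and 21.2 TPM in the cKO libraries (3.81, SE 0.27, and 3.36, SE 0.25). Meis1, a HOX cofactor, was at 0.55 and 1.01 TPM against 12.2 and 9.80 TPM (2.76 and 2.31), whereas its relative Meis2 was at 316 and 246 TPM against 48.9 and 97.4 TPM (-1.998 and -2.65). The other falls, Isl2, Gbx2, Hhex and Pdx1, each lost their call without at least 1 library, and falls in this list numbered 2, 1, 3 and 3 without control 1, control 2, cKO 1 and cKO 2. Both cKO libraries lay above both controls in 52 of all 95 genes (54.7%), beside 36.8% of all protein-coding models, and 30 lay under 0.1 TPM throughout.

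Among 83 Gata, Sox, T-box, Fox and bHLH regulators both cKO libraries lay above both controls in 46 (55.4%), beside 36.8% of all protein-coding models. Of these 83, 13 were tested, 5 of them only through the cKO libraries, and 5 rose (Gata2, Gata4, Gata6, Sox5 and Ascl2) while Mesp2 fell. Much of this count of rises is fixed by the filter. Ascl2, an imprinted trophoblast regulator, was at 0.53 and 1.86 TPM in the controls and at 28.4 and 17.5 TPM in the cKO libraries (3.48, SE 0.41, and 3.01, SE 0.37). Gata2 was at 0.05 and 0.02 TPM against 1.70 and 1.21 TPM. Gata4, Gata6, Sox5 and Mesp2 lost their calls without either control, which left 2 rises and no fall. Of 49 WNT, BMP, FGF and Hedgehog ligands and antagonists 12 were tested, 7 only through the cKO libraries, with 6 rises and 1 fall (Fgf8). Here too the filter fixes much of the count of rises. Both cKO libraries lay above both controls in 25 of the 49 (51.0%), again beside 36.8%. Bmp7 was at 0.32 and 0.89 TPM against 13.2 and 8.12 TPM (2.85 and 2.44), Wnt11 at 0.46 and 0.43 TPM against 10.8 and 6.35 TPM (2.69 and 2.28), and the WNT antagonist Sfrp1 at 0.02 and 0.07 TPM against 4.19 and 3.95 TPM (2.28 and 2.01).

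At or under 0.1 TPM in both controls and at 5 TPM or more in both cKO libraries were 15 protein-coding genes, and the reverse held for none. The one with the highest cKO mean was Cers3, a ceramide synthase for very long acyl chains, at 0.09 and 0.10 TPM against 13.6 and 13.6 TPM (3.74, SE 0.20, and 3.40, SE 0.20). H2-Ab1, a class II antigen-presentation gene, was at 0 and 0.07 TPM against 10.2 and 10.03 TPM. Outside the families above, the largest rises were Igfbp2, Tsc22d3, Ldha, Dlk1, Cacna1s and Cd63. Igfbp2, a binding protein for insulin-like growth factors, was at 0.18 and 0.48 TPM against 79.8 and 63.8 TPM (5.78, SE 0.24, and 5.37, SE 0.22). Tsc22d3, a glucocorticoid-induced leucine zipper gene on the X chromosome, was at 1.81 and 3.68 TPM against 182 and 149 TPM (5.51 and 4.95). Each of these calls held with each library left out.

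**Figure D3:**
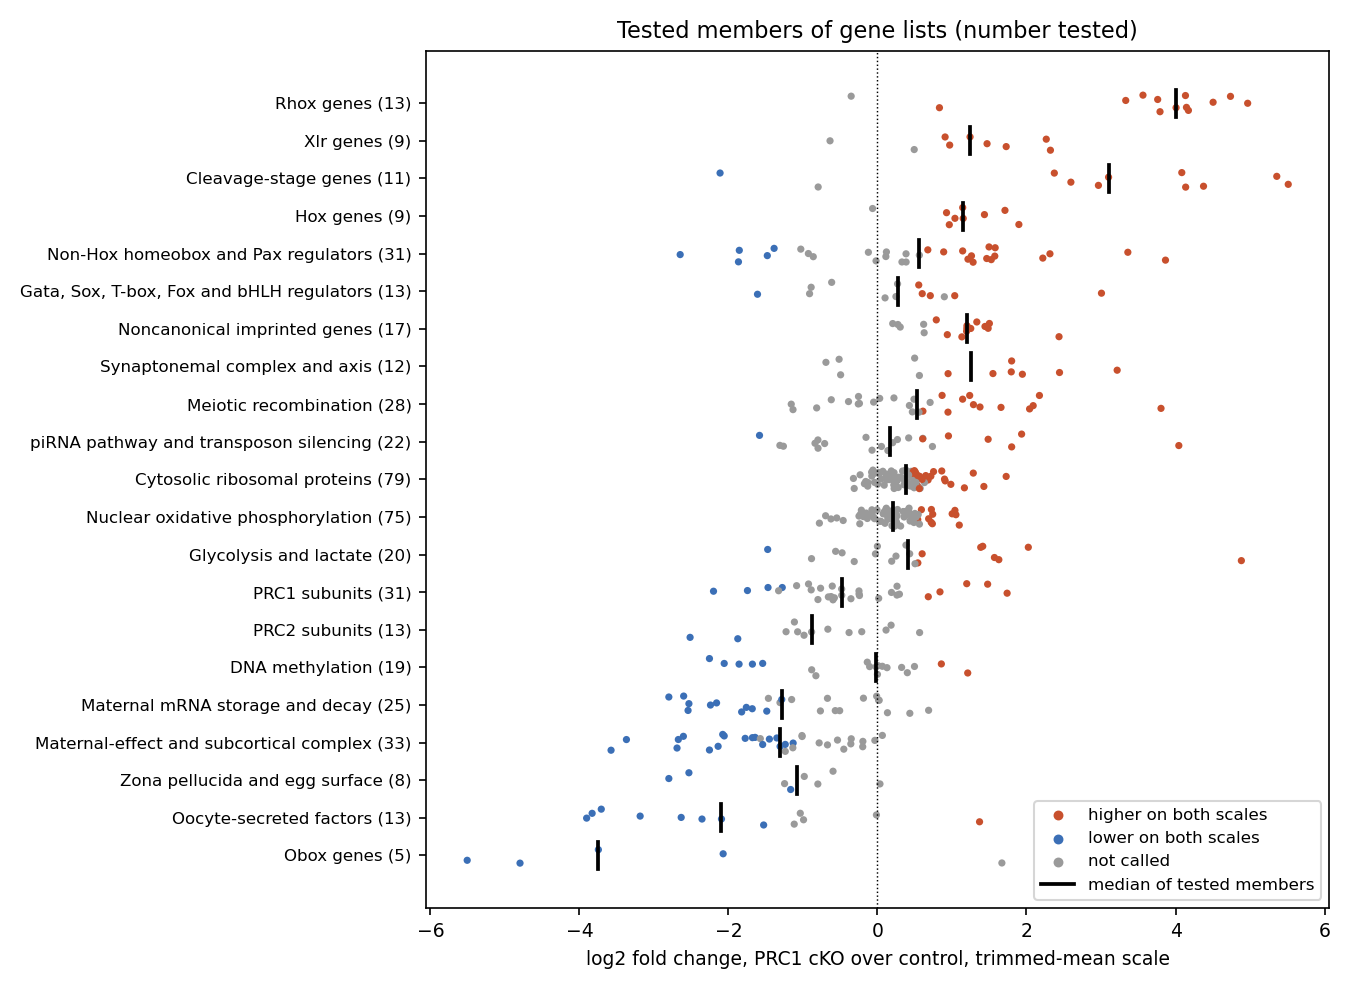
Log2 fold change on the trimmed-mean scale of the tested members of 21 gene lists, 1 point per gene, red where higher and blue where lower on both scales, with a black bar at the list median. The Rhox median lies at 4.01 and the Obox median at -3.75, and the median of all tested genes at -0.01.

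Of 31 tested PRC1 subunit genes 5 rose and 4 fell (median 0.12 and -0.48), beside 22.7% and 6.45% of all tested genes. The filter was passed only through the cKO libraries by 4 of the 31, which fixes part of the count of rises. Pcgf1, of a variant PRC1, was at 415 and 414 TPM in the controls and at 107 and 186 TPM in the cKO libraries (-1.55, SE 0.27, and -2.20, SE 0.34). Its relative Pcgf2 (Mel18) was at 0.62 and 0.85 TPM against 6.42 and 4.61 TPM (1.90 and 1.48). Bcor, the corepressor that joins PCGF1 in its complex, was at 1.65 and 1.88 TPM against 11.8 and 12.7 TPM (2.26 and 1.74). Pcgf5 and E2f6, which rose, and Bmi1, Rybp and Scml2, which fell, lost their calls without at least 1 library, and 2, 3, 4 and 4 rises and 1, 2, 2 and 3 falls were left without control 1, control 2, cKO 1 and cKO 2. Of 13 tested PRC2 subunit genes none rose and 2 fell. AU022751 (Ezhip), an inhibitor of PRC2, was at 351 and 407 TPM against 105 and 101 TPM (-1.86, SE 0.14, and -2.52, SE 0.14), and Ezh2, the methyltransferase, was at 149 and 102 TPM against 37.2 and 72.8 TPM, with a call lost without control 1 or cKO 1. None of the 10 tested deubiquitinases of H2A passed on both scales, and Usp16 and Usp7 changed sign with the scale.

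Histone and DNA methylation genes held rises and falls too, beside 22.7% and 6.45% of all tested genes. Of 24 tested enzymes that write or erase H3 methylation 2 rose and 2 fell. Kdm5b, an eraser of active H3 methylation, was at 3.49 and 4.83 TPM in the controls and at 28.7 and 22.3 TPM in the cKO libraries (2.36 and 1.78). Kdm6a, an eraser of the PRC2 mark, was at 19.6 and 22.5 TPM against 11.8 and 7.48 TPM, with a call lost without either control or without cKO 2. Of 19 DNA methylation genes 5 fell (Dnmt1, Dnmt3a, Dnmt3l, Tet3 and Zfp57) and 2 rose. All of these falls but Tet3 were also counted among the maternal-effect genes above. Zfp57, which protects methylated imprints, was at 928 and 936 TPM against 436 and 481 TPM (-1.02, SE 0.12, and -1.68, SE 0.19). Dnmt3a and Dnmt3l, the pair that methylates the oocyte genome, were at 64.2 and 74.4 TPM against 37.8 and 35.5 TPM and at 28.8 and 24.3 TPM against 5.90 and 13.5 TPM. Both rises, Tdg and Uhrf2, passed the filter only through the cKO libraries, which fixes their direction. Tdg held its call and Uhrf2 lost it with any library left out. Dnmt3a lost its call without control 2 and Dnmt3l without either control or without cKO 1. H1f8, the oocyte linker histone, was at 4531 and 4259 TPM against 1678 and 2190.4 TPM, and lost its call without control 1.

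Genes imprinted through maternal histone methylation (noncanonical imprints) rose in 12 of 17 tested cases and fell in none (median 1.45 and 1.196). Of all tested genes 22.7% rose and 6.45% fell. Only through the cKO libraries did 10 of the 17 pass the filter, which fixes much of their count and median. Over all 18 listed, both cKO libraries lay above both controls in 15 (83.3%), beside 36.8% of all protein-coding models. Of those models 12443 of 21897 were tested, against 17 of the 18 listed, so the background is not like for like. Sfmbt2, a Polycomb-like gene of the placenta, was at 0.09 and 0.18 TPM in the controls and at 2.63 and 1.66 TPM in the cKO libraries (1.45 and 1.196), and Slc38a4, an amino acid transporter, at 0.04 and 0.08 TPM against 1.34 and 1.31 TPM (1.13 and 0.94). Canonical imprinted genes, which carry DNA methylation, gave 7 rises and 1 fall among 23 tested, with 4 rises left without control 2. Of these 23, 5 passed the filter only through the cKO libraries, which fixes part of the count of rises. Over all 36 listed, both cKO libraries lay above both controls in 17 (47.2%), beside the same 36.8%. Dlk1, a Notch-like ligand, was at 2.12 and 3.36 TPM against 188 and 125 TPM (5.39, SE 0.29, and 4.82, SE 0.22), and Mest, the one fall, was at 91.8 and 75.9 TPM against 25.4 and 36.6 TPM (-1.42 and -2.06).

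Regulators of the resting oocyte pool gave 3 rises (Sohlh1, Sohlh2 and Foxo3) and 2 falls (Hmga2 and Nr6a1) among 13, beside 22.7% and 6.45% of all tested genes. Sohlh1, a bHLH factor of germ cells that enter folliculogenesis, was at 90.0 and 157 TPM in the controls and at 986 and 598 TPM in the cKO libraries (2.68, SE 0.36, and 2.03, SE 0.27). Foxo3, which holds primordial follicles in reserve, was at 12.2 and 14.1 TPM against 60.8 and 35.0 TPM (1.74 and 1.11), with a call lost without cKO 1. Sohlh2 lost its call without control 1, cKO 1 or cKO 2, and Hmga2 without control 1 or cKO 1, which left 1 rise without cKO 1. Nr6a1 (germ cell nuclear factor) was at 43.0 and 33.7 TPM against 9.94 and 13.7 TPM (-1.62 and -2.24). Among 16 tested pluripotency and early germ cell genes 5 rose, among them Utf1 (0.16 and 0.21 TPM against 21.4 and 13.2 TPM), and 2 fell, among them Esrrb (19.3 and 20.6 TPM against 4.61 and 5.87 TPM). Of the 16, 3 passed the filter only through the cKO libraries, Utf1 among them, which fixes part of the count of rises. The other fall, Dppa5a, lost its call without either control or without cKO 1. Of 22 tested piRNA pathway genes 6 rose and 1 fell. Tex15, which directs methylation of transposons in male germ cells, was at 17.6 and 27.2 TPM against 143 and 128 TPM (2.58 and 1.93).

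Counts in housekeeping lists depended strongly on the scale and on single libraries. Of 79 cytosolic ribosomal protein genes 25 rose and none fell (median 1.04 and 0.38), against 75 higher on the deposited scale alone, and the count was 6 without control 1, 5 without control 2, 13 without cKO 1 and 15 without cKO 2. Rpl9 was at 69.7 and 91.2 TPM in the controls and at 474 and 371 TPM in the cKO libraries (2.38 and 1.73). Of 75 nuclear oxidative phosphorylation genes 11 rose (median 0.87 and 0.21), against 22.7% of all tested genes, and 4, 1, 9 and 7 did without control 1, control 2, cKO 1 and cKO 2. Of 12 tested mitochondrial mRNAs 5 rose, with 6, 1, 3 and 2 without control 1, control 2, cKO 1 and cKO 2, and mt-Nd1 was at 216 and 184 TPM against 839 and 701 TPM (1.94 and 1.28).

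The lactate dehydrogenase genes Ldha and Ldhb moved in opposite directions. Ldha was at 1.05 and 1.71 TPM in the controls and at 128 and 76.2 TPM in the cKO libraries (5.40, SE 0.32, and 4.88, SE 0.25). Ldhb, the form abundant in oocytes, was at 11287 and 9547 TPM against 5360.0 and 6485 TPM (-0.82 and -1.47), with a call lost without either control or without cKO 1. With all 4 libraries, 22.7% of all tested genes rose and 6.45% fell, which is the background for the counts that follow. In all, 8 of 20 tested glycolytic genes rose and 1 fell. In this list, and also in the stress and the apoptosis list that follow, 3 tested genes passed the filter only through the cKO libraries. Of 17 tested genes of the integrated stress response and serine synthesis 8 rose and 4 fell, with 5 rises left without control 1 or cKO 1 and no fall left without either control. Psat1, of serine synthesis, was at 2.51 and 5.54 TPM against 92.1 and 61.4 TPM (3.99, SE 0.38, and 3.41, SE 0.31) and Phgdh, the first enzyme of that pathway, at 37.9 and 48.2 TPM against 292 and 175 TPM (2.38 and 1.73). The stress regulators Atf4 and Ddit3 were among the falls. Atf4 was at 30.1 and 32.2 TPM against 15.4 and 11.2 TPM. Among 26 tested apoptosis and checkpoint genes 9 rose and 2 fell, with 6, 7, 5 and 6 rises without control 1, control 2, cKO 1 and cKO 2. Pmaip1 (Noxa), a trigger of apoptosis in oocytes with DNA damage, was at 2.51 and 4.16 TPM against 97.8 and 98.6 TPM (4.54, SE 0.24, and 3.96, SE 0.22), and the checkpoint kinase gene Chek1 was at 195 and 184 TPM against 88.4 and 101 TPM (-0.997 and -1.65). None of 7 tested CDK inhibitor genes passed on both scales.

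Markers of the oocyte itself were far more abundant than those of other cells in all 4 libraries. The 11 oocyte markers summed to 15212 and 16440 TPM in the controls and to 13593 and 12298 TPM in the cKO libraries, or after trimmed-mean scaling to 20262 and 19473 against 9953 and 10646 scaled TPM. They gave 4 falls (Zp3, Oosp1, Nlrp5 and Ooep) and no rise, and 2 of these falls were left without control 1, control 2 or cKO 1. The 14 granulosa cell markers summed to 11.97 and 16.6 TPM against 54.2 and 35.8 TPM, and to 15.9 and 19.6 against 39.7 and 31.0 scaled TPM. Of these, 7 were tested, 2 of them only through the cKO libraries. Of the 7, 4 rose (Inha, Inhba, Kitl and Krt8), with 1 left without cKO 1 and 2 without cKO 2. The defining Foxl2 was at 0 and 0 TPM against 0.19 and 0.14 TPM and Amh at 0 and 0.05 TPM against 0.24 and 0.04 TPM. Stroma markers summed to 2.51 and 1.67 TPM against 2.52 and 4.94 TPM, blood markers to 0.25 and 0.85 TPM against 2.42 and 2.38 TPM, endothelial markers to 7.46 and 6.10 TPM against 8.28 and 11.2 TPM and immune markers to 2.68 and 2.44 TPM against 5.53 and 4.93 TPM. After scaling the groups overlapped for stroma (3.34 and 1.98 against 1.85 and 4.28 scaled TPM) and endothelial markers (9.94 and 7.23 against 6.06 and 9.70 scaled TPM), and both cKO libraries stayed higher for immune (3.57 and 2.89 against 4.05 and 4.27 scaled TPM) and blood markers (0.33 and 1.01 against 1.77 and 2.06 scaled TPM). The part of other cells in the rises was not tested.

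The PRC1 changes were set beside the change of growth, measured in the Eed control oocytes as P7 growing against P6 non-growing and normalized in a table of its own. Of 13147 genes tested in both tables, 3656 (27.8%) were lower and 2244 (17.1%) higher in growing oocytes. Of the 3385 genes that rose in the PRC1 cKO, 2265 were among them (17.2% of the 13147), and 1376 of these (60.8%) were lower in growing oocytes while 118 (5.21%) were higher. Of the 964 that fell, 924 were among them (7.03% of the 13147), and 665 (71.97%) were higher in growing oocytes while 8 (0.87%) were lower. Counted from the other side, 37.6% of the genes lower in growing oocytes rose in the PRC1 cKO and 29.6% of those higher in growing oocytes fell. Across these genes the 2 trimmed-mean log2 fold changes had a Pearson r of -0.59 and a Spearman rho of -0.60, as a description, since genes are not independent and growing control oocytes stand in both contrasts, though in different libraries.

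**Figure D4:**
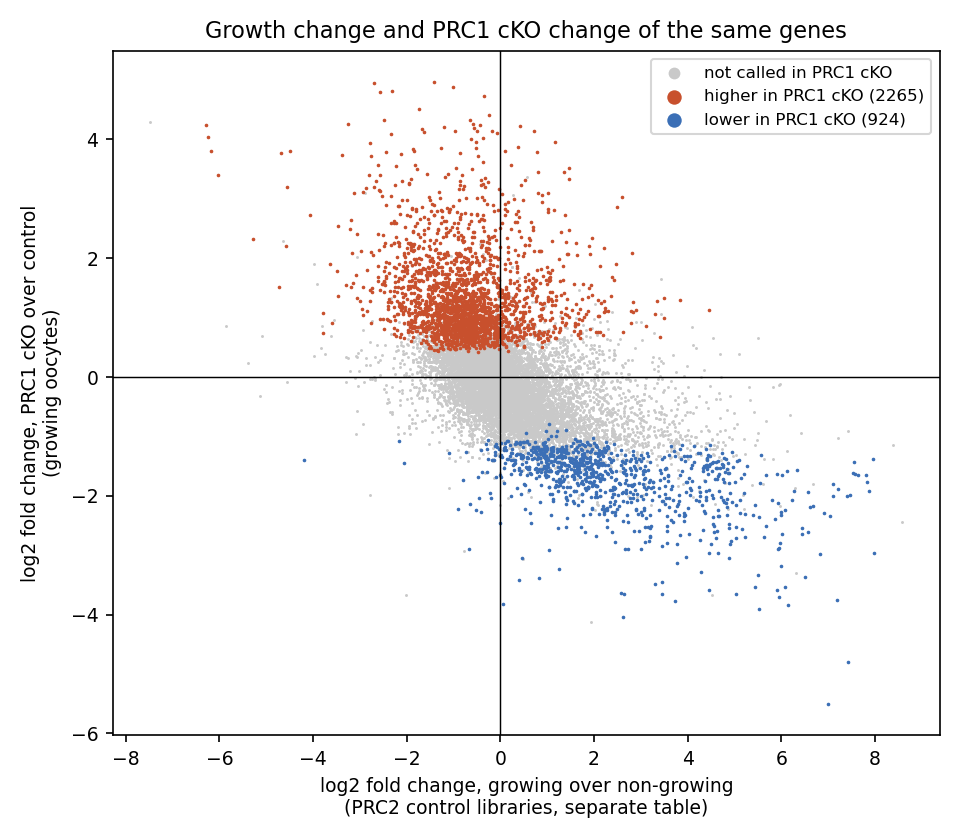
Log2 fold change in the PRC1 cKO (vertical axis) against log2 fold change of growing over non-growing Eed control oocytes (horizontal axis), both on the trimmed-mean scale, for 13147 genes. Most of the 2265 red genes, which rose in the PRC1 cKO, lie left of 0 and most of the 924 blue genes, which fell, lie right of it.

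Values of single genes show what these shares mean. Bmp15 was at 13.9 and 14.3 TPM in non-growing and at 362 and 460 TPM in growing Eed controls, while the PRC1 cKO growing oocytes held 22.1 and 74.2 TPM. Sycp1 was at 141 and 147 TPM in non-growing and at 58.6 and 32.5 TPM in growing Eed controls, so its PRC1 cKO levels of 450.0 and 333 TPM stood above both stages. Levels from the 2 tables were normalized separately and are not compared by a test. Lmx1a, Igfbp2 and Usp17le were under 1 TPM in each of the 8 Eed series libraries. Such genes do not enter the growth comparison, since they did not pass the filter in the Eed table.

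Deletion of Eed in growing oocytes gave few calls by the same rule. Of 14153 genes tested there, 9 (0.0636%) were higher and 7 (0.0495%) lower on both scales, and among the genes tested in both tables the calls were 3 (0.0228%) higher and 7 (0.0532%) lower. With so few calls, that none of the 2265 genes that rose in the PRC1 cKO was among them says little. Of these 2265, 64.2% had a log2 fold change above 0 in the Eed cKO on the trimmed-mean scale, beside 46.7% of all 13147, and of the 924 that fell 29.7% did. Across the 13147 genes the 2 contrasts, which share no library, had a Pearson r of 0.19 and a Spearman rho of 0.21, as a description. Whether the effects of the 2 deletions differ was not tested, because the tables were normalized apart. Sycp1 was at 76.0 and 62.8 TPM in the Eed cKO growing oocytes and Bmp15 at 308 and 430.2 TPM.

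The 2 cKO libraries did not stand equally far from the controls. Among 860 genes that fell and had 5 scaled TPM or more in the controls, cKO 2 lay nearer the controls than cKO 1 in 720 (83.7%). The median ratio to the control mean was 0.262 in cKO 1 and 0.341 in cKO 2. Among 1749 genes that rose to 5 scaled TPM or more, cKO 1 lay above cKO 2 in 910 (52.0%), beside 45.6% of all tested genes. Obox2, Nlrp2, Fgf8 and Bmp15 were all lower in cKO 1 than in cKO 2.

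The make-up of the libraries moved with the groups. TEC models, the GENCODE class for transcripts that await experimental support, took 22.5% and 20.9% of all TPM in the controls and 11.05% and 14.9% in the cKO libraries. Nuclear protein-coding genes took 60.3% and 63.1% against 75.2% and 70.5%, and mitochondrial mRNAs 0.30% and 0.26% against 0.88% and 0.77%. In an exact two-sided permutation test over the 4 libraries each of these differences gave p = 0.333, the smallest that 2 against 2 allows. The single most abundant model, Gm48273 (TEC), was at 26320 and 24947 TPM against 11697 and 16546 TPM. The trimmed-mean factors were 0.751 and 0.844 in the controls and 1.37 and 1.16 in the cKO libraries, and in the other table they were 1.16 to 1.33 in non-growing and 0.756 to 0.907 in growing oocytes. The part of this shift in single results was not tested beyond the requirement of a call on both scales.

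**Figure D5:**
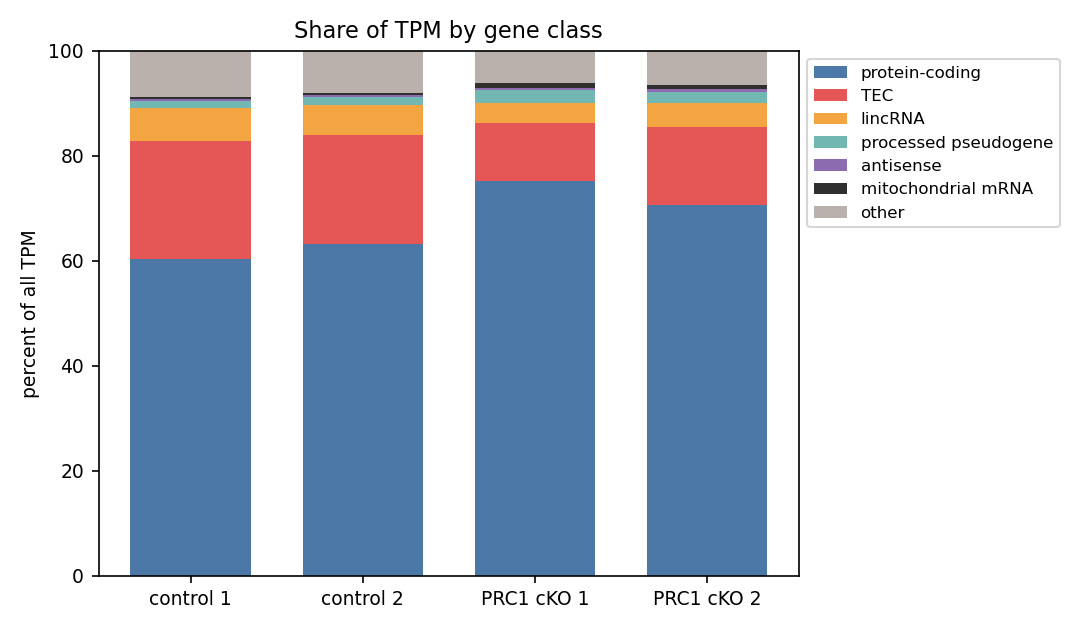
Percent of all TPM taken by each gene class in the 4 libraries, as stacked bars from 0 to 100. The TEC share is 22.5% and 20.9% in the controls and 11.05% and 14.9% in the cKO libraries, and the protein-coding share is 60.3% and 63.1% against 75.2% and 70.5%. Mitochondrial rRNA and tRNA are in the class other.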

How the data were processed

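RNA was measured in bulk from mouse oocytes, in low-input libraries sequenced as read pairs, per the labels' protocols. TPM values were deposited by the authors, with Trim Galore 0.6.10, HISAT2, SAMtools, Subread 2.0.3, RSEM 1.3.3 and build GRCm38 named in the submitters' processing notes, which do not give the order of use, the annotation or the use of strand. Without strand, reads of a gene and its antisense partner cannot be told apart. TPM keeps no depth, so the depth per library is unknown and no counting interval is given.

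Genes at 1 TPM or more in at least 2 of the 4 libraries were tested with limma 3.58.1 (R 4.3.3; eBayes with trend, two-sided, Benjamini-Hochberg over all tested genes, threshold 0.05) on log2(TPM + 1). The fit was repeated after scaling each library by a trimmed mean (30% of log ratios and 5% of levels trimmed at each end). The 8 Eed libraries were fitted in the same way in their own table. The scripts were tested on simulated data. Gene classes and symbols came from GENCODE vM21, with which 99.0% of the models shared coordinates. Background percentages are those of all tested genes.

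The members, gene lists and tests were chosen with earlier results of these data known. Named genes were the targets, the 4 markers, the 12 largest rises and 12 largest falls among annotated protein-coding genes called on both scales without overlap of libraries and averaging 5 TPM or more in whichever group was higher, up to 4 members per list by p, and the 8 highest of those at or under 0.1 TPM in both controls. Other list members named in the text were chosen after their values were seen. Whether a group's libraries are separate animals is not stated, so p-values measure the spread between libraries, which may be technical. Alternatives were other pseudocounts, filters, scalings and variance settings, a replicate block and leaving out each library.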

Additional observations from a re-analysis of the deposited data

How the results depend on the processing

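The split of calls depended on the scale and on which library was present. On both scales, leaving out 1 library gave 2408 to 3271 genes (2137 to 2447 higher, 271 to 824 lower). On the deposited scale it gave 2953 to 6390 (2682 to 5554 higher, 271 to 836 lower), and on the trimmed-mean scale 3658 to 4666 (2246 to 2489 higher, 1404 to 2219 lower). Against the 964 lower and 6176 higher genes of the deposited scale, no filter beyond a value above 0 gave 547 lower, scaling to nuclear protein-coding genes 1512 lower, quantile normalization 2705 higher and 2608 lower, trimmed-mean scaling 3385 higher and 3026 lower, and a filter of 5 TPM 3991 higher. That filter gave 4249 calls on the trimmed-mean scale, 2207 of them higher, and 2207 higher on both scales, and no filter gave 547 lower on both. Asking for a 2-fold change left 4583 calls on the deposited scale (4098 higher, 485 lower), 3770 on the trimmed-mean scale (2161 higher, 1609 lower) and 2646 on both (2161 higher, 485 lower). Except for the filters, the smaller sample and the fold minimum, which change the test by construction, the cause was not tested.

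Libraries with the same number share only that number in the labels, and their deviations had a correlation of -0.27. The replicate block gave 600 lower genes on the deposited scale and 589 on both. Crossed pairing, chosen after seeing the data, gave 1569 lower on each.

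Of 145 named genes called on both scales, 110 kept the call with each library left out. None of the other settings reversed a called gene except quantile normalization for Gata6 (-0.0200). Among genes not called, Rnf2 turned to -0.27, Usp7 to -0.60, Usp16 to -0.52 and Cd68 to -0.34 after trimmed-mean scaling. Quantile normalization turned Usp7 to -0.29, Usp16 to -0.17, Tek to -0.12 and Cd68 to -0.68, and nuclear protein-coding scaling turned Usp7 to -0.19, Usp16 to -0.10 and Cd68 to -0.049. With 1 library left out, the log2 fold change ranged from -0.085 to 0.18 for Usp7, from -0.20 to 0.025 for Psmd8, from -0.21 to 0.015 for Hsph1 and from -0.75 to 0.27 for Pecam1. Depth is unknown, and the TPM filter left 9 of 39 Hox genes and none of the stroma and blood markers tested.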

Other observations

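The X chromosome held a larger share of rises than the autosomes. Of 500 tested X-linked protein-coding genes 231 rose (46.2%) and 16 fell, with a median log2 fold change of 0.52 on the trimmed-mean scale. Without the Rhox and Xlr families the share was 195 of 461 (42.3%), with a median of 0.44. On the autosomes 2606 of 11927 tested genes rose (21.8%) and 684 fell (5.73%). The difference between X-linked genes and autosomes was not tested.

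Of 10 tested class I (H2) genes of the mouse major histocompatibility locus 8 rose and none fell, with summed levels of 146 and 197 TPM in the controls and 650.4 and 477 TPM in the cKO libraries. The class II gene H2-Ab1 rose too, and Cd74, which encodes its chaperone, was at 0.07 and 0.10 TPM against 1.09 and 1.72 TPM. Near-identical class I copies make single values uncertain.

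Models placed on the Y chromosome carried TPM in all 4 libraries, although the cells came from ovaries. Kdm5d was at 138 and 131 TPM in the controls and at 88.0 and 111 TPM in the cKO libraries, and Gm20826 at 1292 and 1127 TPM against 678 and 904 TPM.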
